A study of Mus musculus with 20 samples.

Results

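The 10 genes described here encode dual-specificity phosphatases (Dusp1, Dusp2, Dusp4, Dusp5, Dusp6, Dusp8 and Dusp10) and Sprouty proteins (Spry1, Spry2 and Spry4). They were chosen by symbol, whatever their level, and each symbol matched 1 row in each of the 2 expression tables, 10 of the 21509 protein-coding genes listed. RNA-seq was performed on DC2 cells, an immortalised line derived from principal cells of the distal caput epididymis of the mouse, grown in microfluidic channels. In the flow experiment, 6 libraries came from cells perfused for 3 h at a wall shear of 1 dyn/cm2 (flow) and 6 from unperfused cells (static). In the siRNA experiment, 4 libraries came from cells transfected with a mixture of siRNAs against Ift88, a transport protein needed to build the primary cilium (Ift88 siRNA), and 4 from cells given a scrambled sequence (control siRNA). According to the paper both siRNA groups were under flow, so neither is a static control. The paper describes a period in low-serum medium before flow for the flow experiment. The labels do not say which libraries came from separate cultures, so p-values measure the spread between libraries, which may be technical.

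Expression was read as TPM, a transcript abundance that is corrected for transcript length and sums to 1000000 in each library. TPM keep no total of reads, and the depth behind each value is unknown. Between 15543 and 16562 genes were above 0 in the libraries of the flow experiment. In the siRNA experiment the number was between 15713 and 16682 with Ift88 siRNA and between 15292 and 15382 with control siRNA, without overlap. The part of this difference in the results was not tested. Ift88, the targeted gene, lay between 0.917 and 1.71 TPM in the Ift88 siRNA libraries and between 4.08 and 4.21 TPM in the control siRNA libraries, so the groups did not overlap. The labelled cell type was checked against its markers. In the flow experiment the principal cell markers Pax2 and Pax8 and the epithelial markers Krt18 and Cldn4 had a mean of at least 1 TPM in both groups, and the principal cell markers summed to between 93.1 and 157 TPM. The principal cell markers Lcn8 and Crisp1 were at 0 TPM in all 12 libraries of the flow experiment, and Aqp9 and the epithelial markers Epcam, Krt8 and Cdh1 were below a mean of 1 TPM in both of its groups. Aqp9, Lcn8 and Crisp1 were also below a mean of 1 TPM in both siRNA groups, where the principal cell markers summed to between 99.5 and 166 TPM and the epithelial markers to between 2870 and 3335 TPM. Of the epithelial markers, Epcam and Krt8 were below a mean of 1 TPM in both siRNA groups, and Cdh1 in the control siRNA group. Of other cell types, the summed markers in the flow experiment were at or below 5.35 TPM for fibroblasts, 2.26 TPM for clear cells, 1.45 TPM for endothelium and 0.483 TPM for basal cells. Those of macrophages summed to between 10.5 and 65.2 TPM, with Adgre1 at 0 and Ptprc and Csf1r below a mean of 1 TPM. In the siRNA experiment the macrophage markers summed to between 87.7 and 99.9 TPM, with Ptprc, Adgre1 and Csf1r below a mean of 1 TPM. Each of the other cell types just named summed there to at most 2.43 TPM. The title and the treatment label of 1 library disagree, the title giving flow, as do its description and column name, and the treatment static. It is flow replicate 6 here, following its title, and the count of members called is also given with it read as static. Flow and static libraries of the same number deviated together from their group means, so values from a model that blocks on the replicate number (the block, for short) are given beside those without it.

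Dual-specificity phosphatases of this kind, the MAP kinase phosphatases, switch off MAP kinases by removing phosphate from the threonine and the tyrosine of the activation loop. Many of them, and the Sprouty proteins, which dampen the route from receptor tyrosine kinases through Ras to ERK, are themselves transcribed when that route is active, so their RNA is widely read as negative feedback. Dusp5 is nuclear and prefers ERK, Dusp6 is cytoplasmic and prefers ERK, Dusp1, Dusp2 and Dusp4 are nuclear enzymes that act on several MAP kinases, and Dusp8 and Dusp10 prefer JNK and p38.

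Promoter windows, 250 bases before to 50 bases after the transcription start, were found in RefSeq (GRCm38.p6) for 8 of the 10 genes, all but Dusp4 and Spry4. The windows of Dusp5, Dusp1, Dusp8 and Dusp2 are shown because they hold matches to the binding motifs of factors that drive immediate early genes. Capitals mark the CArG box (the serum response factor motif) in Dusp5, the CRE TGACGTCA (the cAMP response element) in Dusp1 and Dusp8, and the EGR motif GCGGGGGCG in Dusp2. Each sequence runs 5′ to 3′ on the strand of its gene.
Dusp5: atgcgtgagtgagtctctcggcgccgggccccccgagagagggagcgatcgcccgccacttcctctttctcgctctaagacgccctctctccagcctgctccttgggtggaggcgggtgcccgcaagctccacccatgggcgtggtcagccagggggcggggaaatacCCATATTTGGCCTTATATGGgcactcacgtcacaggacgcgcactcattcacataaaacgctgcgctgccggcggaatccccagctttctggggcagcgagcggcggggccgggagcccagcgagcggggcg
Dusp1: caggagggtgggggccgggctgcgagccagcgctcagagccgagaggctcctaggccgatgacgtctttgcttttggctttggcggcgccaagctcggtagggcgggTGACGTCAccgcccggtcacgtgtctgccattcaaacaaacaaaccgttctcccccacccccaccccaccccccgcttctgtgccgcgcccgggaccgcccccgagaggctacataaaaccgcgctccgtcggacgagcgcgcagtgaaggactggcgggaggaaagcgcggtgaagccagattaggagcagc
Dusp8: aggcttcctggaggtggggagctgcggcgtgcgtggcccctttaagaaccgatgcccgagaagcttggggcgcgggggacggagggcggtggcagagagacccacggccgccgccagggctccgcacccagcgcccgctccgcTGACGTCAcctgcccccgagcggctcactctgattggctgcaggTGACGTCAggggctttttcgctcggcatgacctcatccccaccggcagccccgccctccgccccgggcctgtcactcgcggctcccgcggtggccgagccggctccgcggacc
Dusp2: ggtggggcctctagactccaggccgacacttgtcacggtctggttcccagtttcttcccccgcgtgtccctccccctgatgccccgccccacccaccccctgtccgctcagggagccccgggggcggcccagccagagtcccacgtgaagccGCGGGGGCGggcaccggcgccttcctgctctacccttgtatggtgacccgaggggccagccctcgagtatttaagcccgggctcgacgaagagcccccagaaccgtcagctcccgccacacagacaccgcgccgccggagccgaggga
The Dusp5 window lies on the plus strand at chr19:53528895-53529194, and its gene has 4 exons coding for 384 residues in GENCODE M21. The Dusp1 window lies on the minus strand at chr17:26508423-26508722 (4 exons, 367 residues). The Dusp8 window lies on the minus strand at chr7:142095235-142095534 (7 exons, 663 residues), and that of Dusp2 on the plus strand at chr2:127335909-127336208 (4 exons, 318 residues).

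The Dusp5 window held 2 adjoining CArG boxes, the first from 82 to 73 bases and the second from 72 to 63 bases before the start. Of all 32851 windows of the table, 1.63% held a CArG box. The Dusp1 window held 1 CRE, 143 to 136 bases before the start, and the Dusp8 window held 2, at 107 to 100 and 63 to 56 bases before it. The CRE was found in 1.79% of all windows. Its core TGACG, which is also part of every CRE, was found in 4 of the 8 windows (Dusp1, Dusp2, Dusp5 and Dusp8) and in 20.8% of all windows. The EGR motif, found in 2.91% of all windows, occurred in Dusp2 alone among the 8, at 98 to 90 bases before the start. The ETS core GGAAGT, found in 23.8% of all windows, occurred in Dusp5 alone, and the AP-1 motif TGANTCA, found in 7.81%, in none of the 8. The windows of Dusp6, Dusp10, Spry1 and Spry2 held none of the motifs searched, on either strand. GC content was between 57.3% and 73.3% in the 8 windows (median 65.5%) and had a median of 52.7% over all windows. A match describes letters in this window and does not show that a factor binds there.

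**Figure D1:**
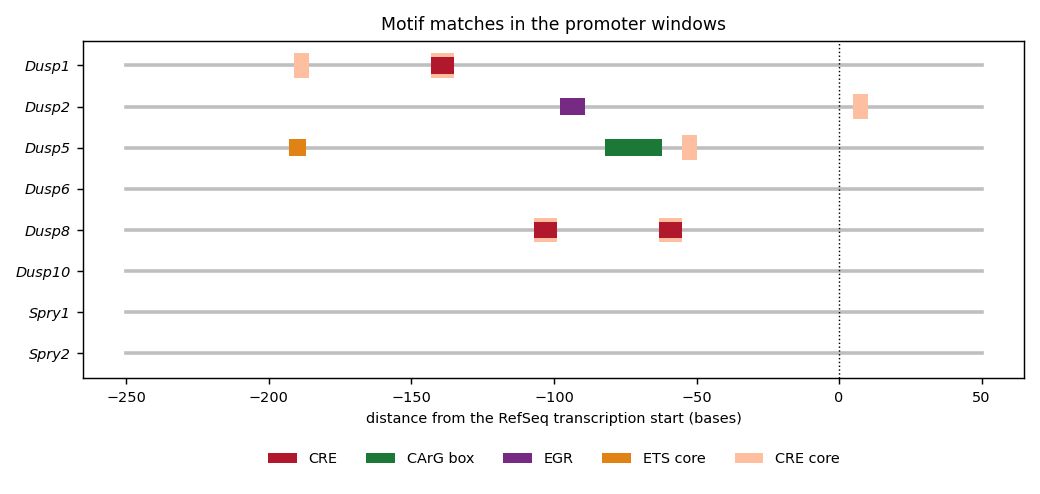
Matches to the motifs searched in the 8 promoter windows, by distance in bases from the RefSeq transcription start (dotted line). Each grey bar is 1 window and each coloured block 1 match on either strand. CRE cores are drawn taller than the CREs that contain them, and 4 windows (Dusp6, Dusp10, Spry1 and Spry2) hold no match.

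Effect of flow. All 10 genes had a higher mean TPM under flow than in static cells, and 9 of them had a mean of at least 1 TPM and were tested. Dusp5 rose, from a mean of 31.1 to 197 TPM. Genes were called where limma gave an adjusted p below 0.05 with a fold change above 1.5. Dusp5 was the only member called without a block, where 0.105% of the 11388 genes tested were called higher. With the block, Dusp1, Dusp5, Dusp6, Dusp8 and Spry2 were called higher, 5 of the 9 tested, beside 0.597% of all genes. Spry1, Dusp2, Dusp4 and Dusp10 were called in neither fit, although Dusp2 had the highest ratio of means. At an unadjusted p under 0.05 by limma were 8 of the 9 tested members without the block, beside 3.85% of all genes. With the block all 9 were, beside 11.1% of all genes. No gene of the table was called lower by limma in these 2 fits, with 204 genes lower at an unadjusted p under 0.05 without the block and 817 with it. Genes were called lower with library weights (11 of 86 called), without flow replicate 2 (11 of 87), and with the block and pair 2 or pair 5 left out (58 of 193 and 1 of 34); no member was among them. In these bulk libraries a larger share of responding cells and more RNA per cell cannot be told apart. The median log2 fold change of all genes was -0.03, and 38.8% of them had a higher mean under flow.

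**Figure D2:**
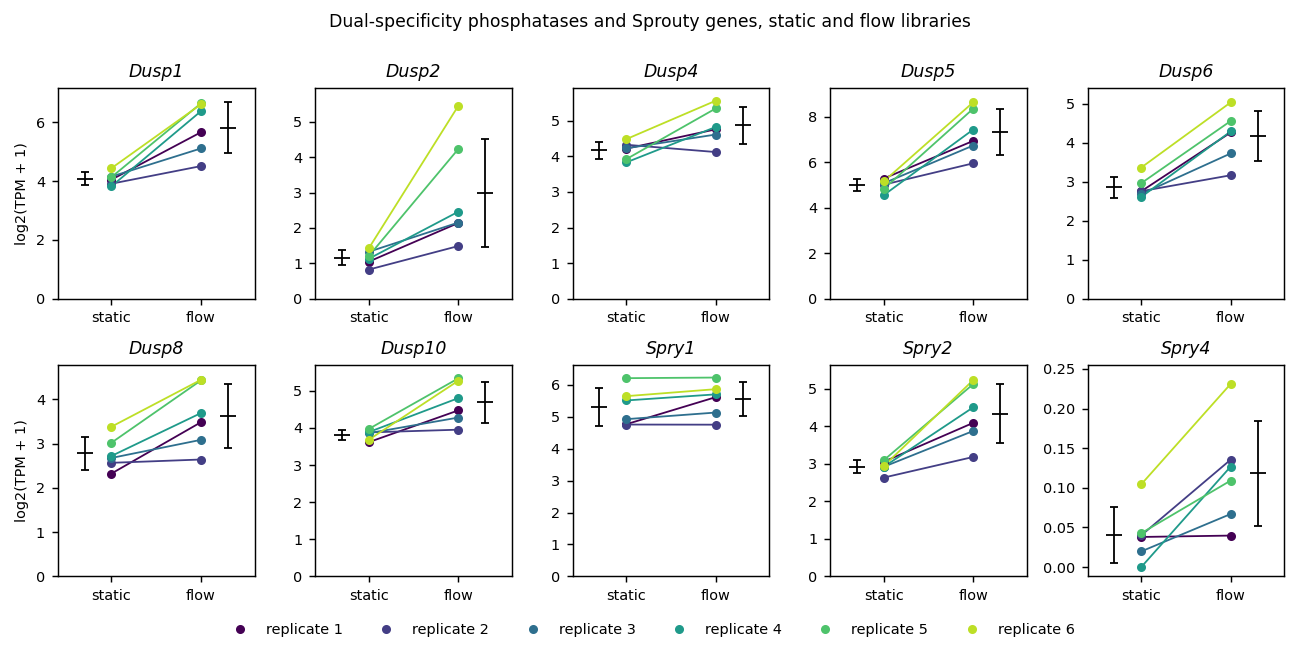
log2(TPM + 1) of each gene in the 6 static and 6 flow libraries, 1 panel per gene, each with its own vertical scale. Points are libraries, lines join libraries of the same replicate number, and black marks beside the points are group means with SD; the lines of Dusp1, Dusp2, Dusp5, Dusp6, Dusp8, Dusp10 and Spry2 all slope upward, and those of Spry1 are nearly flat in most pairs.

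Among the phosphatases that prefer ERK, Dusp5 was between 22.5 and 37.9 TPM (median 32.0) in static cells and between 60.9 and 397 TPM (median 147) under flow. Every flow library was above every static library, and the flow libraries differed among themselves by a factor of 6.51, against 1.69 for the static libraries. The means were 197 ± 134 and 31.1 ± 5.49 TPM (SD, n = 6 each), and the log2 fold change was 2.36 ± 0.36 (SE) with an adjusted p of 0.0167 by limma, or 0.0064 with the block. The call of Dusp5 without the block was lost when flow replicate 4 or any one of static replicates 1 to 5 was left out, with adjusted p-values up to 0.0658, and its log2 fold change stayed between 2.10 and 2.64 over the 12 fits that left out a library.

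Dusp6, the cytoplasmic ERK phosphatase, was between 5.11 and 9.30 TPM (median 5.76) in static cells and between 7.98 and 31.8 TPM (median 18.4) under flow. Only flow replicate 2 fell within the static range. The means were 18.6 ± 8.29 and 6.36 ± 1.55 TPM, and the log2 fold change of 1.32 ± 0.25 (SE) had an adjusted p of 0.0698 by limma without the block and 0.0039 with it. Dusp6 was higher under flow in all 6 same-numbered pairs, by 0.41 to 1.68 on the log2(TPM + 1) scale.

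Among the nuclear phosphatases of wider range, Dusp1 was between 13.2 and 20.7 TPM (median 16.1) in static cells and between 21.8 and 98.8 TPM (median 65.8) under flow, with no overlap between the groups. Its log2 fold change was 1.73 ± 0.32 (SE), with an adjusted p of 0.0565 by limma without the block and 0.0077 with it. Dusp2 was the lowest of the tested members in static cells, between 0.769 and 1.69 TPM (median 1.25), and lay between 1.81 and 42.7 TPM (median 3.97) under flow. Its groups did not overlap, but 4 of its 6 flow libraries were at or below 4.50 TPM and flow replicates 5 and 6 were at 17.8 and 42.7 TPM. The ratio of its means, 9.77, therefore rested on those 2 libraries, and its log2 fold change of 1.83 ± 0.54 (SE) had an adjusted p of 0.462 by limma, or 0.0832 with the block. Dusp4 was between 13.2 and 21.4 TPM (median 17.7) in static cells and between 16.4 and 46.3 TPM (median 26.7) under flow. It was higher in 5 of 6 pairs and 0.20 lower on the log2(TPM + 1) scale in pair 2, with a log2 fold change of 0.70 ± 0.21 (SE) and an adjusted p of 0.462 by limma, or 0.137 with the block.

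The phosphatases that prefer JNK and p38, Dusp8 and Dusp10, both had means about 2 times as high under flow (ratios of 2.09 and 2.01). Dusp10 was between 11.3 and 14.7 TPM (median 13.6) in static cells and between 14.5 and 39.4 TPM (median 24.1) under flow, where only replicate 2 fell within the static range. Its log2 fold change was 0.87 ± 0.20 (SE), with an adjusted p of 0.161 by limma and 0.0507 with the block, just outside the threshold. Dusp8 was between 4.00 and 9.43 TPM (median 5.49) in static cells and between 5.24 and 20.8 TPM (median 11.1) under flow, with flow replicates 2 and 3 inside the static range. Its log2 fold change of 0.85 ± 0.29 (SE) had an adjusted p of 0.817 without the block and 0.0406 with it, by limma. The call with the block was lost when pair 1, 3, 4, 5 or 6 was left out, with adjusted p-values between 0.0578 and 0.264 by limma. For Dusp1, Dusp5, Dusp6 and Spry2 it was lost only without pair 1, at adjusted p-values between 0.0720 and 0.105.

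The Sprouty genes differed from each other. Spry2 was between 5.20 and 7.55 TPM (median 6.63) in static cells and between 8.09 and 36.7 TPM (median 18.9) under flow, with no overlap. Its log2 fold change was 1.41 ± 0.28 (SE), with an adjusted p of 0.0839 by limma without the block and 0.0105 with it. Spry1 was between 26.1 and 73.2 TPM (median 37.1) in static cells and between 26.0 and 74.2 TPM (median 49.7) under flow, and its groups covered the same range. Its log2 fold change was 0.25 ± 0.28 (SE), with an adjusted p of 0.998 by limma, or 0.392 with the block. Spry4 was at or below 0.174 TPM in every library of the flow experiment and was tested only in the fit with no filter. There limma called 0 of the 10 members, and 9 had an unadjusted p under 0.05, as had 3.53% of all genes.

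Of the 9 tested genes, 4 (Dusp1, Dusp2, Dusp5 and Spry2) had all 6 flow libraries above all 6 static libraries, beside 0.492% of all genes tested. In addition to those 4, Dusp6, Dusp8 and Dusp10 were higher under flow in all 6 same-numbered pairs, 7 of the 9 in all, beside 1.98% of all genes.

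In static cells the order of mean levels ran from Spry1 (41.5 TPM) and Dusp5 (31.1 TPM), whose ranges overlapped, through Dusp4, Dusp1 and Dusp10 (17.2, 16.1 and 13.1 TPM, each overlapping the next), to Spry2, Dusp6 and Dusp8 (6.65, 6.36 and 6.08 TPM, each overlapping the next), then Dusp2 (1.26 TPM) and Spry4 (0.0290 TPM). The libraries of Dusp5, Dusp10, Dusp8 and Dusp2 did not overlap with those of the gene next below. Under flow Dusp5 had the highest mean (197 TPM), before Dusp1 (63.7 TPM) and Spry1 (48.5 TPM). Each gene there overlapped the next in the order except Dusp2 and Spry4.

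The size of the change differed between the pairs of libraries. Flow replicate 2 had the lowest level of all 9 tested genes among the flow libraries, and flow replicates 5 and 6 had the 2 highest levels of all 9. The summed TPM of the 10 genes was 163 in flow replicate 2, between 252 and 417 in replicates 1, 3 and 4, and 673 and 767 in replicates 5 and 6. In the static libraries it was between 121 and 169. In pair 2 the change was 0.94 for Dusp5, 0.60 for Dusp1 and 0.07 for both Dusp8 and Dusp10 on the log2(TPM + 1) scale, the smallest change of each of these genes among the pairs.

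**Figure D3:**
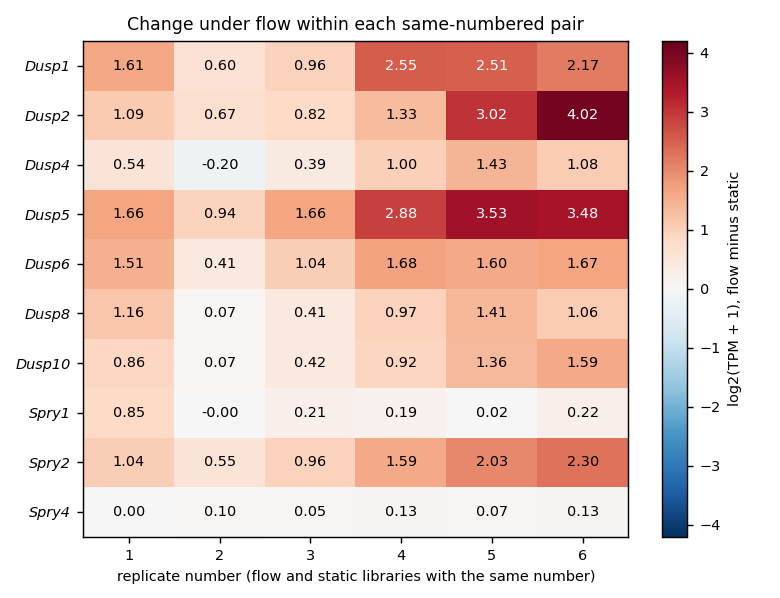
Difference in log2(TPM + 1), flow minus static, of each gene (rows) in each same-numbered pair of libraries (columns); colour and printed value give the same number. Pair 2 holds the lowest value of every gene but Spry4, and the highest value, 4.02, is that of Dusp2 in pair 6.

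The first principal component of all genes (34.4% of the variance) separated replicates 1 to 3, at 7.70 or above, from replicates 4 to 6, at 1.16 or below, in both groups. The labels name no batch behind these numbers. Within replicates 1 to 3, limma called no member (7 had an unadjusted p under 0.05, as had 1.66% of all genes), beside 0.0443% of all genes. Within replicates 4 to 6, Dusp1, Dusp5, Dusp6, Dusp10 and Spry2 were called, beside 0.49% of all genes. The log2 fold change of Dusp5 was 1.42 in replicates 1 to 3 and 3.30 in replicates 4 to 6, a difference of 1.88 ± 0.22 (SE) with an adjusted p of 0.0130 by limma's interaction term, which 0.158% of all genes passed. For Dusp1 the 2 values were 1.06 and 2.41 (adjusted p of the difference 0.0787 by limma) and for Spry2 they were 0.85 and 1.97 (adjusted p 0.126). Dusp6 had 0.99 and 1.65 (adjusted p 0.968), and Spry1, the only member with the smaller value in replicates 4 to 6, had 0.35 and 0.14 (adjusted p 1.00). The sum of the epithelial markers was between 53.1 and 279 TPM under flow and between 47.5 and 125 TPM in static cells, and its part in these results was not tested.

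Leaving out flow replicate 2 raised the number of members called without the block from 1 to 6 (Dusp1, Dusp4, Dusp5, Dusp6, Dusp10 and Spry2), while the share of all genes called rose from 0.105% to 0.765%. With flow replicate 6 read as static, limma called no member and no gene of the table, with 4 members and 181 genes (1.59% of those tested) at an unadjusted p under 0.05. With that library left out, Dusp5 was called without the block, and with its pair left out 4 members (Dusp1, Dusp5, Dusp6 and Spry2) were called with the block. Without the pair of replicate 1, the fit with the block called no member (8 had an unadjusted p under 0.05, as had 9.97% of all genes), and without that of replicate 2 it called 8, all but Spry1. All genes were called at 0.0701% and 1.70% in those 2 fits, against 0.597% with every pair.

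Across the 12 libraries, Pearson's r of log2(TPM + 1) was between 0.87 and 0.98 for the 28 pairings of tested members other than Spry1. For the 8 pairings with Spry1 it was between 0.45 and 0.77. After the group means were taken out, r was between 0.79 and 0.95 for the 28 pairings and between 0.40 and 0.82 for the 8 with Spry1. Over the 6 flow libraries alone it was between 0.80 and 0.99 for the 28 and between 0.75 and 0.96 for the 8. These values are descriptions, since all members share each library and its position on the first principal component. The gene outside the 10 with the most similar pattern was Phlda1 for Dusp5 (r = 0.99), Ier2 for Dusp1 (0.99), Hbegf for Spry2 (0.99), Ptgs2 for Dusp6 (0.98) and Arid5b for Dusp10 (0.99). For Dusp2 it was Lif (0.99), for Dusp4 Mafk (0.99), for Dusp8 Mideas (0.98) and for Spry1 Elmod1 (0.99).

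The kinases named here, on which the phosphatases act, were not called. Mapk3, which encodes ERK1, had means of 96.7 ± 15.5 TPM in static cells and 85.1 ± 20.8 TPM under flow (SD, n = 6). Mapk8 (JNK1) had means of 29.9 ± 2.29 and 33.2 ± 2.79 TPM, and Mapk14 (p38 alpha) of 42.7 ± 3.04 and 42.2 ± 3.02 TPM. None of the 23 genes tested of the chain from Ras to ERK was called by limma in either fit, and none had an unadjusted p under 0.05 without the block, with log2 fold changes from -0.20 to 0.13 (median -0.01). None of the 16 genes tested of the JNK and p38 chains was called (-0.32 to 0.34; 2 had an unadjusted p under 0.05), nor any of the 13 receptor tyrosine kinases upstream (-0.20 to 0.13; 0 under that p).

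Most relatives of the members were not called in the same fits. The other MAP kinase phosphatases Dusp7, Dusp9 and Dusp16 had log2 fold changes from 0.01 to 0.21, with none called and none at an unadjusted p under 0.05. The 11 atypical dual-specificity phosphatases tested, which lack the kinase-binding domain, ranged from -0.33 to 0.21 with none called, and the 3 Spred genes tested, relatives of the Sprouty genes, from -0.07 to 0.04 with none called; 0 genes of either list had an unadjusted p under 0.05. Of 14 other negative regulators of receptor tyrosine kinases and Ras, 1 was called, and only with the block. It was Errfi1, which encodes an inhibitor of the EGF receptor family. Its mean was 48.9 ± 8.20 TPM in static cells against 186 ± 134 TPM under flow, and its log2 fold change of 1.61 had an adjusted p of 0.145 by limma, or 0.0117 with the block.

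Some transcripts commonly used as a readout of ERK activity rose. Of 16 tested, 3 were called higher without the block and 10 with it, none lower, and their median log2 fold change was 1.08. Egr1, an immediate early transcription factor, went from 42.5 ± 24.3 to 377 ± 240 TPM (log2 fold change 2.98, adjusted p 0.0160 by limma). Phlda1, an ERK-inducible gene, went from 72.9 ± 10.9 to 371 ± 203 TPM (2.17, adjusted p 0.0080), and Ier2, an immediate early gene, from 42.3 ± 8.81 to 194 ± 98.9 TPM (2.01, adjusted p 0.0160). Etv4 and Etv5, ETS factors on the same list, were not called, at log2 fold changes of 0.09 and -0.09.

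Effect of Ift88 siRNA. None of the 9 members tested was called by limma between Ift88 siRNA and control siRNA, beside 0.223% of the 11209 genes tested. At an unadjusted p under 0.05 were 5 of the 9 members and 13.9% of all genes. Dusp1 was closest, with a higher level in all 4 Ift88 siRNA libraries, and Spry2, Dusp6 and Spry4 were lower in all 4. The other 6 genes overlapped between the groups.

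**Figure D4:**
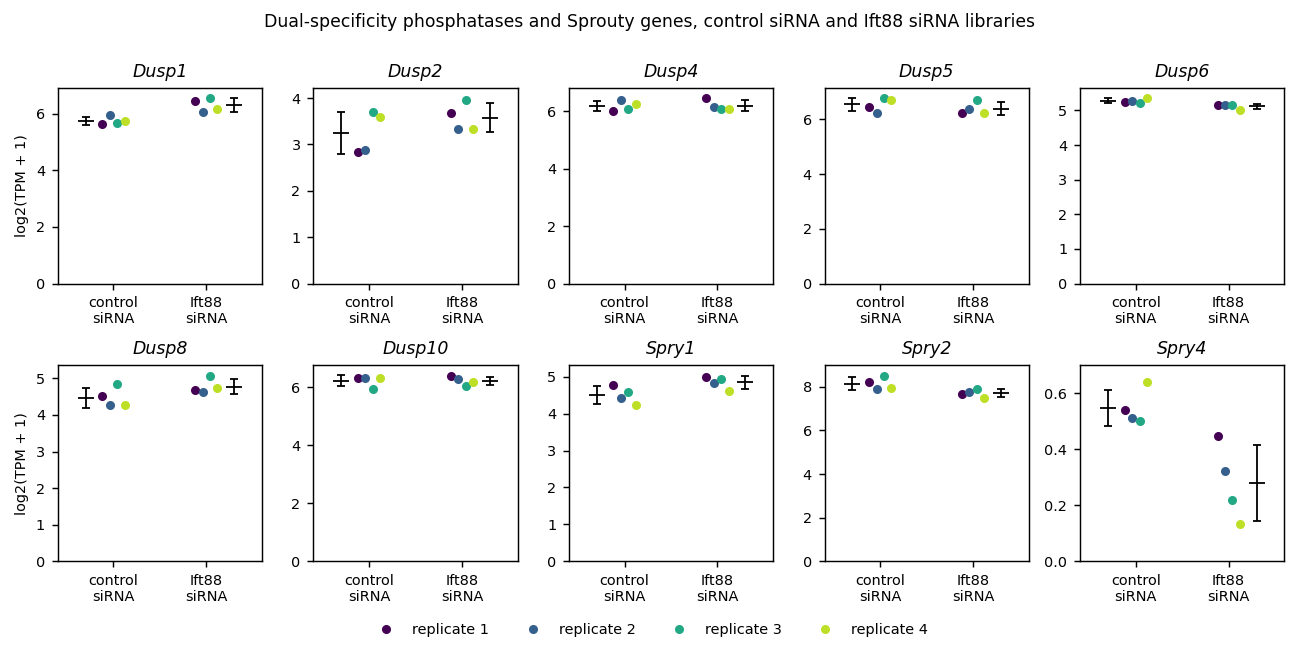
log2(TPM + 1) of each gene in the 4 control siRNA and 4 Ift88 siRNA libraries, 1 panel per gene, each with its own vertical scale. Points are libraries and black marks beside them are group means with SD; the groups are apart for Dusp1 (higher with Ift88 siRNA) and for Dusp6, Spry2 and Spry4 (lower), and Spry4 lies below 1 TPM throughout.

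Dusp1 was at 48.1, 60.9, 49.3 and 51.9 TPM in control siRNA replicates 1 to 4 and at 86.6, 65.4, 92.2 and 69.8 TPM in Ift88 siRNA replicates 1 to 4. The lowest Ift88 siRNA library was above the highest control. The log2 fold change of 0.56 ± 0.11 (SE) had an adjusted p of 0.0481 by limma, and its size was under the 1.5-fold limit. Without Ift88 siRNA replicate 2 or control siRNA replicate 2 it passed that limit and was called, at log2 fold changes up to 0.64.

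Spry2 was at 297, 240, 367 and 250 TPM in the control siRNA libraries and at 203, 220, 239 and 180 TPM in the Ift88 siRNA libraries. The groups were apart by less than 1 TPM, between control siRNA replicate 2 and Ift88 siRNA replicate 3. The log2 fold change was -0.44 ± 0.12 (SE), with an adjusted p of 0.135 by limma. Dusp6 was at 37.2, 37.9, 35.9 and 40.4 TPM in the control siRNA libraries and at 35.0, 34.7, 34.3 and 30.9 TPM in the Ift88 siRNA libraries. Its log2 fold change was -0.16 ± 0.07 (SE), with an adjusted p of 0.353 by limma. Of the 9 tested members, 1 (Dusp1) thus had groups that did not overlap in the higher direction, beside 5.79% of all genes, and 2 (Dusp6 and Spry2) in the lower direction, beside 2.79%.

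Dusp5, the member with the largest called change under flow, was at 86.9, 74.1, 108 and 103 TPM in the control siRNA libraries and at 74.9, 82.6, 104 and 73.3 TPM in the Ift88 siRNA libraries. The groups overlapped, and the log2 fold change was -0.15 ± 0.13 (SE), with an adjusted p of 0.637 by limma. Dusp4 and Dusp10 had log2 fold changes of 0.01 ± 0.10 and -0.00 ± 0.10 (SE), with no fixed sign when libraries were left out. Spry1, Dusp2 and Dusp8 were higher by 0.35, 0.33 and 0.31, with adjusted p-values of 0.237, 0.508 and 0.336 by limma.

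Spry4 was at 0.452, 0.426, 0.414 and 0.560 TPM in the control siRNA libraries and at 0.364, 0.251, 0.164 and 0.0972 TPM in the Ift88 siRNA libraries. All 4 Ift88 siRNA libraries were below all 4 controls, at a level under the filter of 1 TPM, where single reads weigh heavily. In the fit with no filter its adjusted p was 0.259 by limma, with a log2 fold change of -0.27.

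In both siRNA groups Spry2 was the member with the highest mean (288 ± 58.0 TPM with control siRNA and 210 ± 25.2 TPM with Ift88 siRNA), above all libraries of the next gene, Dusp5. With control siRNA the order went on with Dusp10 and Dusp4, which overlapped each other and Dusp5, then Dusp1, Dusp6 and Spry1, each apart from the gene before it. Spry1 and Dusp8 overlapped, and Dusp2 and Spry4 each lay below the gene before. With Ift88 siRNA the mean of Dusp1 (78.5 TPM) lay between those of Dusp5 (83.7 TPM) and Dusp10 (74.4 TPM), with overlapping ranges. The tables of the 2 experiments were normalised separately, and no level was tested between them.

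None of the 99 genes tested in the 8 lists of related genes was called by limma with Ift88 siRNA, with or without the block, and 20 (20.2%) had an unadjusted p under 0.05 without it, beside 13.9% of all genes. A call also needs the 1.5-fold change. The list of ERK readouts held an adjusted p under 0.05 by limma at a smaller change, in both fits. The mean of Mapk14 was 12.1 ± 2.56 TPM in the controls and 11.7 ± 1.36 TPM after Ift88 siRNA (SD, n = 4). Pearson's r between tested members over the 8 siRNA libraries was between -0.73 and 0.70 (median -0.01, 36 pairings), with 19 pairings below 0, whereas none was below 0 over the 12 libraries of the flow experiment. No test of that difference was made.

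**Figure D5:**
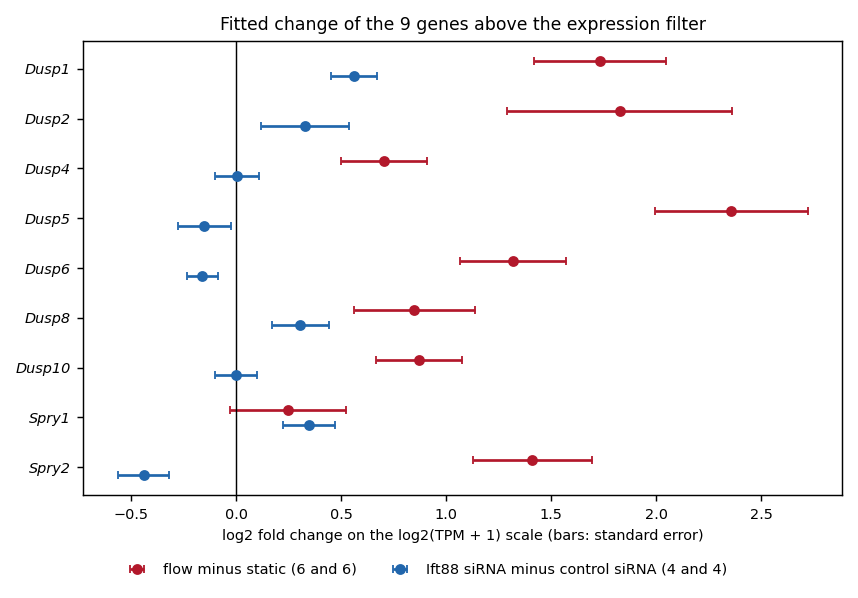
Log2 fold change with SE of the 9 tested genes in the 2 experiments, flow minus static (red, 6 libraries a group) and Ift88 siRNA minus control siRNA (blue, 4 libraries a group), from limma without a block. The red points run from 0.25 for Spry1 to 2.36 for Dusp5 and the blue points from -0.44 for Spry2 to 0.56 for Dusp1; the vertical line marks no change.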

How the data were processed

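RNA-seq of DC2 cells was analysed from 2 tables of TPM that the authors deposited, 1 for each experiment (12 and 8 libraries). Per the paper's methods, directional libraries of poly(A) RNA were sequenced paired-end, and reads were trimmed with Trimmomatic, pseudoaligned by kallisto to Ensembl transcripts of the mouse, then summed per gene by tximport. The submitters' processing notes also name kallisto 0.46.2, fastp 0.20.0, FastQC 0.11.8 and MultiQC 1.8. TPM are corrected for transcript length, sum to 1000000 in each library and are not counts, so no count model was used. Read depth, and so counting error, cannot be had from them.

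Values were taken to log2(TPM + 1), and genes averaging 1 TPM or more over a table were tested with limma 3.58.1 (lmFit, eBayes with trend) in R 4.3.3. A gene was called where its Benjamini-Hochberg adjusted p, over all genes tested, was below 0.05 and its fold change above 1.5. Differences on this scale understate the change of low genes. Each table was fitted alone, without a block. After subtracting group means, flow and static libraries sharing a number correlated across genes with r of 0.294, 0.463, 0.425, 0.468, 0.662 and 0.600 (replicates 1 to 6 in order). All were above 0.1, so the numbers were taken to pair these libraries, although no source names a pairing. Flow replicate 3 correlated best with static replicate 1, not with static replicate 3. Replicates 1 to 3 and 4 to 6 stand apart on the first principal component in both groups, so these correlations do not establish a pairing. The fit was run on simulated data with known changes. Their noise was independent between libraries, without the replicate structure of these data, so that run does not test the block here.

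Alternatives were the replicate block, each library left out, library weights, median-of-ratios scaling, no filter, a pseudocount of 0.1, no fold change threshold, the label of flow replicate 6 and the replicates 1 to 3 and 4 to 6 apart. The fits with the block and without each pair were added after the data had been seen. The members and lists were chosen with earlier results of these data known. Named genes are all members, Ift88, cell type markers, 3 MAP kinases, up to 3 genes of each list with the largest change among those called without the block (with it, where none was), and the nearest pattern of each member. Etv4, Etv5, Spred2, Dusp7, Dusp9, Dusp14 and Dusp16 were named after their values were seen. Promoter windows are RefSeq's on GRCm38.p6 and exons are GENCODE M21's on GRCm38, an older build than that of the Ensembl release used by the authors, and motifs were searched in Python 3.11.15 with pandas 2.3.3 and numpy 2.4.6. The values of 2 genes are not reported here.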

Additional observations from a re-analysis of the deposited data

Results flagged for a closer look

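The flow effect on Dusp5 differed between replicates 1 to 3 and 4 to 6, by 1.88 on the log2(TPM + 1) scale in limma's interaction test (adjusted p 0.0130), and all 18 genes that passed this test had the larger effect in replicates 4 to 6. In 3 cases a library stood far from the others of its group. Dusp4 was at 88.3 TPM in Ift88 siRNA replicate 1 and between 66.1 and 69.8 TPM in the others. Dusp6 was at 30.9 TPM in Ift88 siRNA replicate 4 and between 34.3 and 35.0 TPM in the others, and this library widened the gap to the controls. Dusp10 was at 60.3 TPM in control siRNA replicate 3 and between 78.8 and 79.9 TPM in the others. In all, 40 groups of values were examined for such libraries, and chance picks out about 1 in 20.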

How the results depend on the processing

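Under flow every tested member kept a positive log2 fold change in each alternative run, and the calls changed. The number of members called was 1 without the block, 5 with the replicate block, 4 with median-of-ratios scaling, 7 with library weights, 5 within replicates 4 to 6, and 0 within replicates 1 to 3, with no filter or with flow replicate 6 counted as static. It was between 0 and 6 when a library was left out, and between 0 (without replicate 1) and 8 (without replicate 2) with the block and 1 pair left out. The number of genes called was 12, and 68 with the replicate block, 28 with median-of-ratios scaling, 86 with library weights, 2 with no filter, 0 with flow replicate 6 counted as static, 5 within replicates 1 to 3 and 56 within replicates 4 to 6. It was between 5 and 87 when a library was left out and 8, 193, 51, 38, 34 and 41 with the block and pair 1, 2, 3, 4, 5 or 6 left out. In the siRNA experiment 0 members were called, 1 (Dusp1) without a fold change threshold, and between 0 and 1 when a library was left out. There 25 genes were called, 6 with no filter, 48 with library weights, 44 with the replicate block and 71 without a fold change threshold, and between 11 and 23 when a library was left out. The siRNA correlations were 0.046, 0.003, 0.259 and 0.176, not all above 0.1, so the replicate numbers were not taken to pair the libraries. The block called no member there. The log2 fold change of Dusp4 went from 0.0053 to -0.018 with median-of-ratios scaling and ranged from -0.090 to 0.075 when a library was left out, and that of Dusp10 from -0.098 to 0.060. The cause was not tested. Depth is unknown from TPM.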

Other observations

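Relatives of the members had small differences with Ift88 siRNA that were not called. Spred2, a Sprouty relative that holds back Ras and Raf, had a mean of 20.5 ± 2.55 TPM in the controls and 14.9 ± 1.53 TPM after Ift88 siRNA (SD, n = 4). Its log2 fold change of -0.43, under the 1.5-fold limit, had an adjusted p of 0.0978 by limma, or 0.0382 with the block. Dusp7, a cytoplasmic phosphatase that prefers ERK like Dusp6, had means of 13.7 ± 0.821 and 9.94 ± 1.29 TPM, a log2 fold change of -0.43 with an adjusted p of 0.0976 by limma. In the other direction, Dusp16, a further MAP kinase phosphatase, had means of 16.8 ± 1.16 TPM in the controls and 22.1 ± 2.60 TPM after Ift88 siRNA, a log2 fold change of 0.38 with an adjusted p of 0.120 by limma. Dusp14, an atypical dual-specificity phosphatase, had a log2 fold change of 0.23 with an adjusted p of 0.191 by limma. All 3 Spred genes tested had a lower mean with Ift88 siRNA.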
